A study of Mus musculus with 20 samples.

Results

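Histone H3 acetylated at lysine 27 (H3K27ac) was mapped in mouse hepatocytes by ChIP-seq (immunoprecipitation of chromatin followed by sequencing). The regions described here are merged acetylated regions that lie at the ends of 2 or more genes. The lists of called regions of 10 libraries were merged wherever they overlapped by 1 bp. A merged region was kept if it was autosomal, was called in all 10 libraries, and overlapped the 1 kb on either side of an annotated end of at least 2 different RefSeq protein-coding genes. Of 46767 merged regions 12550 were called in all 10 libraries, and 1481 of these met the rule. They are called shared regions, and they lie within 1 kb of ends of 2944 genes. A merged region can hold several called regions. In 640 of the 1481 (43.2%) the nearest 2 ends of different genes lay inside 1 called region in all 10 libraries. In 274 they did so in no library, and in 38 neither end lay inside a called region in any library. The comparison group is the 5081 autosomal regions, also called in all 10 libraries, that lie at the end of exactly 1 gene (single-gene regions). A further 5725 autosomal regions lie at no gene end.

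The hepatocytes, which carry out most of the metabolism of the liver, were isolated by a perfusion protocol in 2 steps from young mice (5 months, C57BL/6N, 5 libraries) and old mice (23 months, C57BL/6J, 5 libraries). Age and substrain coincide and cannot be told apart. Nothing in the labels ties the libraries to separate animals, and the p-values below therefore cover only the spread among these samples, which may be technical. Human chromatin had been spiked into all samples, but no value used here was scaled to it, and a change in the total amount of acetylation would not be seen. The libraries held between 6295930 and 15544145 tags, and 24.53 to 48.23% of the tags lay in called regions (IP efficiency). Gene ends of all 10 hepatocyte markers were called in all 10 libraries, whereas 0 of 6 endothelial, 0 of 6 stellate cell and 0 of 6 lymphocyte markers were. Of 6 Kupffer cell markers only Cd68 was called in all 10, and its region (311.1 scaled tags on average) is a shared region that also holds ends of Eif4a1 and Mpdu1, so the signal cannot be given to 1 of the 3 genes. Sox9 was the only 1 of 5 cholangiocyte markers called in all 10.

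Some libraries stood apart. In young replicates 1 and 3 gene starts often fell outside the called blocks, with values given below. Young replicate 1 had the lowest median-centred value of the 10 libraries in 26.1% of shared regions, against 22.6% of single-gene regions and 17.3% of all regions called in all 10. Young replicate 5 was the deepest library and had an estimated fragment length of 620 bp, against 414 to 444 bp in the others. Old replicate 5 had the lowest IP efficiency and the shortest called regions. Results that rest on these libraries are given with and without them.

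Genes in the mouse genome are often packed in pairs. In a divergent pair the genes are read in opposite directions from starts that lie back to back, so that a single stretch without nucleosomes can serve both promoters, and such promoters are typically rich in CpG and poor in TATA boxes. Acetylation of H3K27 marks the nucleosomes that flank an active start, and at an ordinary promoter it extends further into the transcribed gene than away from it.

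Promoter sequences at several shared regions are shown first, and those named for Nbr1 and Ppip5k2 span the stretch between the starts of the pair. Each was taken from the RefSeq promoter windows of GRCm38.p6, runs 5′ to 3′ on the strand of the named gene, and ends 30 bases past that gene's start. Capitals mark matches, on either strand, to any of 8 motifs. These are the TATA box written TATAAA, the CCAAT box, the GC box written GGGCGG, the motif of ETS factors written CCGGAAG, that of NRF1 written GCGCATGC, the cAMP response element (CRE) written TGACGTCA, the E-box written CACGTG and the YY1 motif written AAGATGGC. A match is a description of the letters and does not show binding. The first is the stretch between Brca1, a gene of homologous recombination repair, and Nbr1, an autophagy receptor gene, at chr11:101551925-101552136 on the plus strand. The start of Brca1 is base 31 and the start of Nbr1 base 183, and the only match is a CCAAT box on the other strand.
Nbr1: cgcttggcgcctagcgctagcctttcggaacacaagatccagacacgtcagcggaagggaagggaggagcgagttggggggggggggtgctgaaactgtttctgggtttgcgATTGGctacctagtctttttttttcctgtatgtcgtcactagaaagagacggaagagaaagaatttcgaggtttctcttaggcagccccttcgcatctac
The second belongs to a region that was lower in old libraries, at Gin1 and Ppip5k2, an inositol pyrophosphate kinase gene (chr1:97770063-97770202, minus strand). By the outermost annotated ends these genes overlap by 239 bp. The window printed belongs to a start of Ppip5k2 (base 111) that lies 319 bp inside the outermost one, and from there the start of Gin1 (base 31) is divergent. The ETS and GC box matches both lie outside the stretch between these starts.
Ppip5k2: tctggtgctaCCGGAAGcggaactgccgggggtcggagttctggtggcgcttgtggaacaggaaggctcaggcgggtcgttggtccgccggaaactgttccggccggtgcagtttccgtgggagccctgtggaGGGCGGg
The promoters of Gart, a purine synthesis gene, and Son, a splicing cofactor gene, are 852 bp apart and are shown separately, since the windows do not reach each other. Both hold CCAAT boxes, 3 at Son (chr16:91647574-91647853, plus strand) and 1 at Gart (chr16:91646943-91647222, minus strand), with the start at base 251 in each.
Son: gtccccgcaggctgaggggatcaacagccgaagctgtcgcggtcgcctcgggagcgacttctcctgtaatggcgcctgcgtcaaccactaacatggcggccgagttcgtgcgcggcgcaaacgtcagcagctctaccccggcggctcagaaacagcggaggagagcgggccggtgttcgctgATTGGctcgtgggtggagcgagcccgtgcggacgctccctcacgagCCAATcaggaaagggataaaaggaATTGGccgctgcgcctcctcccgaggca
Gart: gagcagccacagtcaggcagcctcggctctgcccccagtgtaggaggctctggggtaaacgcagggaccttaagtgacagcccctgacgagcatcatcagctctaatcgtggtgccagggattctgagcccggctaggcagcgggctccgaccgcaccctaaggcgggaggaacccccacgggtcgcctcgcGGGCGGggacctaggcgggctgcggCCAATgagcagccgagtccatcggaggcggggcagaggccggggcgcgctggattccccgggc
The last is the promoter of Ciart, a repressor gene of the circadian clock whose region was also lower in old libraries (chr3:95882199-95882478, minus strand, start at base 251). This start lies 29 bp from the outermost annotated one, and the nearest end of the neighbour is a 3′ end. It holds 8 matches, of which 3 are E-boxes, the element that the clock activators CLOCK and BMAL1 recognise.
Ciart: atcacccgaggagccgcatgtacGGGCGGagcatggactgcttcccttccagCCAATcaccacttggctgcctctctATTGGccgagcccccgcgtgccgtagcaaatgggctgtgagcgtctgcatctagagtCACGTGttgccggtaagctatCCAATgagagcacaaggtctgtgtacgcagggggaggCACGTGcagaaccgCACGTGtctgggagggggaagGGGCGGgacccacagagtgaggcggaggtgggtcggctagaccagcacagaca

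Over the whole set the same features could be counted in the RefSeq windows, which span 250 bases before to 50 after a start. Only windows whose start is the outermost annotated end of the gene were used. Starts at shared regions (1197 windows) had a median GC content of 60.7%, the same as starts at single-gene regions (60.7%, 2096 windows) and above that of all protein-coding genes with a window (54.0%, 10583 windows). The observed over expected CpG ratio was 0.82 at shared regions, 0.78 at single-gene regions and 0.47 over all windows, and it reached 0.87 at divergent starts within 1 kb of each other (464 windows). TATA boxes were present in 6.93% of windows at shared regions, 9.16% at single-gene regions and 16.9% of all windows. The ETS motif was found in 25.5% at shared regions and in 28.4% at close divergent starts, against 17.6% at single-gene regions and 10.3% of all. The YY1 motif was in 11.0% of close divergent windows, 4.68% of single-gene windows and 3.08% of all. CCAAT boxes were in 39.1% of windows at shared and 41.1% at single-gene regions (40.3% of all), and GC boxes in 62.6 and 64.6% (40.5% of all). NRF1 matches were in 6.6 and 6.35% (3.1% of all), CRE matches in 4.51 and 4.15% (2.26% of all) and E-boxes in 144 of 1197 and 237 of 2096 windows (7.44% of all). In 303 of 389 close divergent pairs the starts are under 250 bp apart, so the windows of the paired genes overlap in sequence and are not separate observations.

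Gene ends at a shared region lay close together. The nearest ends of different genes in a shared region were a median of 294 bp apart, the largest distance was 12381 bp, and in 1089 regions (73.5%) it was at most 1 kb. These 1089 are called compact. Most shared regions held ends of 2 genes (1356), while 110 held 3, 12 held 4, 2 held 5 and 1 held 6. Of autosomal merged regions at 2 or more genes 65.6% were called in all 10 libraries, against 56.4% of those at 1 gene and 16.5% of those at none. Both values are used to choose the members, and a region merged from more libraries is longer and can meet more gene ends, so this is a description only. On chromosome 7 shared regions made up 32.8% of all gene-end regions called in all 10 libraries and on chromosome 18 only 13.8%, the extremes of the 19 autosomes.

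The direction of both genes was known for 1113 of the 1481 regions. In 431 of them (38.7%) the nearest pair of ends was a pair of divergent starts, in 234 (21.0%) the starts of opposite genes that overlap at their 5′ ends, and in 25 (2.25%) parallel starts. A start met the 3′ end of a neighbour in 356 regions, and 3′ ends met each other in 67 (6.02%). Among compact regions the share of divergent starts was 46.9% (389 of 830), with a median distance of 100 bp. Pairs of a start and a 3′ end were further apart, with a median of 1110 bp. Regions whose nearest ends were both 3′ ends carried the most tags (median 346.5 scaled tags) and were the longest (3770 bp), against 252.1 scaled tags and 2466 bp for divergent starts. The arrangement is that of the nearest pair only, and a region can reach other gene ends too. In 15 of the 47 compact ones neither 3′ end lay inside a called region in any library, so the tags cannot be given to the 3′ ends.

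**Figure D1:**
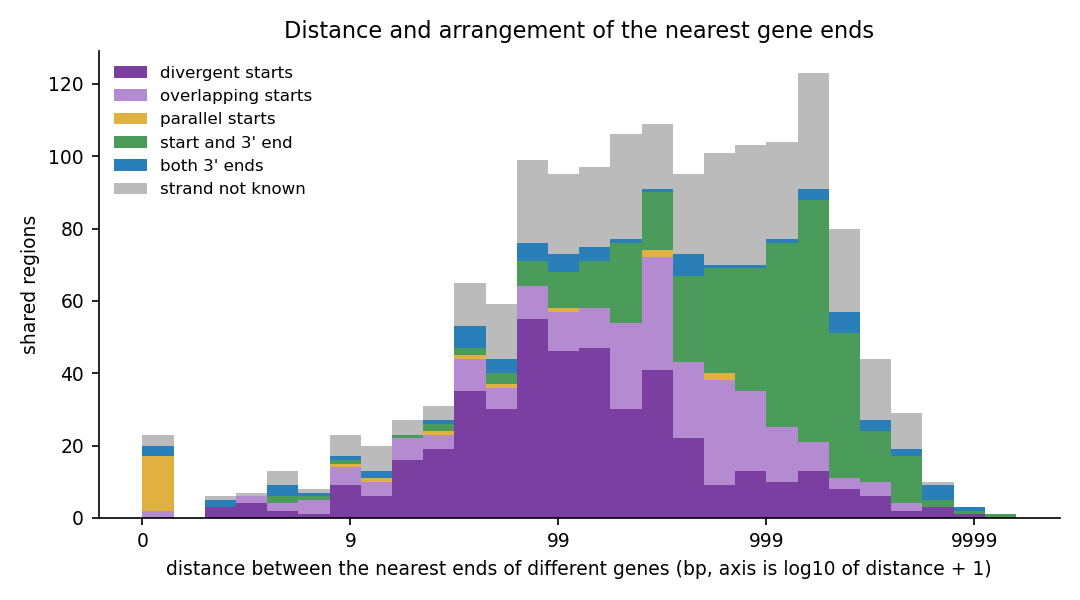
Number of shared regions by distance between the nearest ends of different genes (x axis, bp, on a log10 scale of distance plus 1), stacked by arrangement. Divergent starts gather around 100 bp, whereas pairs of a start and a 3′ end lie mostly around and beyond 1 kb.

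A shared region held only slightly more tags than a single-gene region. Scaled tags are the tags of a region in a library scaled to 10000000 tags, summed over the called pieces inside the merged region, so they rise with called length. The median over shared regions was 272.6 scaled tags and 2575 bp of called length, over single-gene regions 248.8 scaled tags and 2391 bp, and over regions at no gene end 107.8 scaled tags and 2214 bp. Compact divergent regions carried 240.4 scaled tags, no more than the 256.3 of single-gene regions at a start. In the 10 libraries the ratio of these medians lay between 0.914 and 0.995. At matched level, by comparing within 10 groups cut at the deciles of the shared regions, shared regions were 1.04 times as long as single-gene regions. Among compact regions the ratio was 1.01, and length is partly set by the rule, since a longer region meets more gene ends. The fold over input was the ratio of tags to input tags, each summed over the called pieces. It was 0.947 times that of single-gene regions at matched level, and this value was below 1 in all 10 libraries (0.9173 to 0.977).

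Over the 10 libraries together the block around a divergent pair was about as long as that around a single start, and more even. Length and reach were measured only on called regions that held both starts of a pair, or the single start. The regions measured therefore differed between libraries. The median length over all libraries was 2481 bp at divergent pairs and 2465 bp at single-gene starts of matched level. It was longer at divergent pairs in every young library, but among old libraries only in replicate 3 (2360 against 2345 bp). Within each region the longer of the sides outside the starts held a median of 60.7% of both sides at divergent pairs and 67.2% at single-gene starts, where it was the side of the gene in 82.2% of cases. The share was lower at divergent pairs in all 10 libraries (59.4 to 62.9% against 65.8 to 70.1%), a measure chosen after the values had been seen. From the single start of a single-gene region, the called block reached a median of 1552 bp into the gene and 827.7 bp away from it. From divergent starts of a compact shared region, at matched level, it reached 1146 bp into each gene, which is 0.738 times the downstream reach of single-gene starts (0.726 to 0.758 in the 10 libraries). With blocks of similar length and both sides counted as downstream, a ratio below 1 follows from the arrangement and is given as a description.

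**Figure D2:**
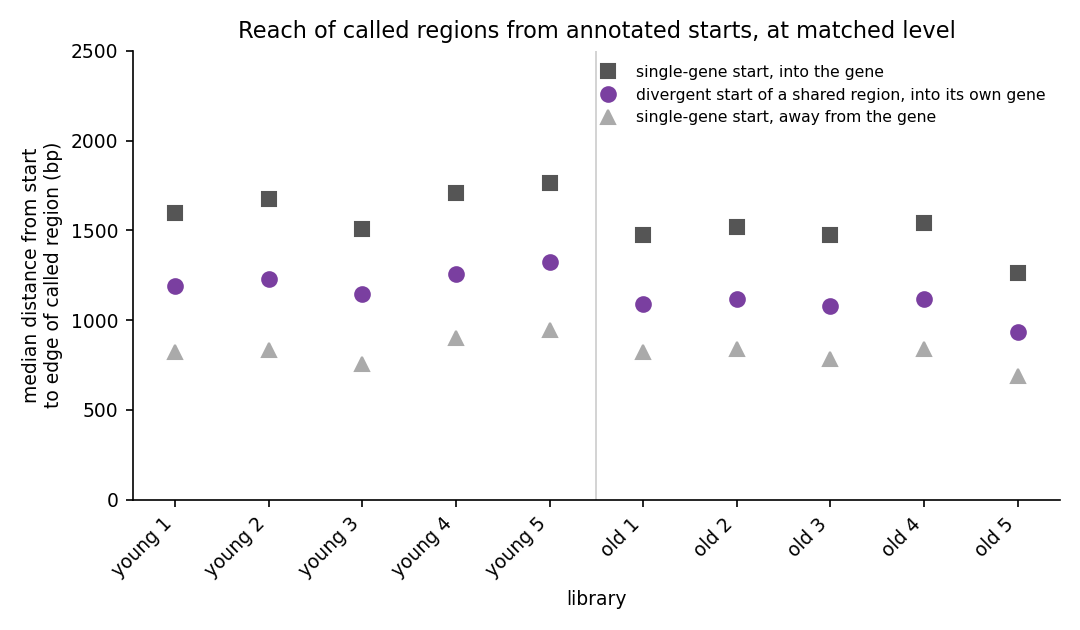
Median distance (y axis, bp) from an annotated start to the edge of the called block, in each of the 10 libraries (x axis), for divergent starts of compact shared regions and for single-gene starts at matched level. With block lengths similar but not equal, the divergent starts lie in every library between the downstream reach (1264 to 1766 bp) and the upstream reach (687.7 to 943.3 bp) of single-gene starts.

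Called blocks reached less far from divergent starts in old libraries. Only pairs with both starts in 1 called region entered, 78.1 and 78.4% of pairs in young replicates 1 and 3 and 89.2 to 98.5% in the others, so the pairs differed between libraries. The reach from divergent starts was 1190, 1228, 1143, 1257 and 1326 bp in young replicates 1 to 5 and 1089, 1120, 1079, 1118 and 936.6 bp in old replicates 1 to 5. All 5 old values lay below all 5 young ones, with means of 1229 ± 69.1 and 1069 ± 75.9 bp (SD, n = 5 each; two-sided exact permutation p = 0.00794, the smallest that 252 assignments allow; 0.0397 after Benjamini-Hochberg adjustment over 5 tests). With 1 library left out the differences ranged from −182 to −127 bp. Over the 126 assignments that remain, the exact permutation p was 0.00794 without any 1 of the young libraries and 0.0159 without any 1 of the old ones (1 and 2 assignments as extreme). After adjustment it was 0.0198 to 0.0397 and 0.0595 to 0.0794, values that depend on the number of assignments and on the other 4 measures and say nothing about stability. Without young replicates 1 and 3 the difference was −202 bp (adjusted exact permutation p = 0.0446). Downstream reach from single-gene starts was 1651 ± 101 bp in young and 1454 ± 110 bp in old ones (exact permutation p = 0.0238, adjusted 0.0595, n = 5 each). The ratio between the reaches was 0.744 ± 0.0108 in young and 0.735 ± 0.00579 in old ones (exact permutation p = 0.151, adjusted 0.251, n = 5 each). For reach, a change particular to divergent pairs was thus not detected. Block length was 2663 ± 186.5 bp at divergent pairs and 2574 ± 204.2 bp at single-gene starts in young libraries. In old libraries it was 2314 ± 170.3 and 2331 ± 174.4 bp. The ratio of their median scaled tags was 0.979 ± 0.0144 in young and 0.934 ± 0.0175 in old libraries. Age differences in relative length and in this ratio were not tested. IP efficiency was 40.2 ± 6.62% in young and 31.9 ± 4.81% in old ones (SD, n = 5 each), and its part in the called lengths was not tested.

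Whether both starts of a pair fell inside a single called block differed between libraries. In 8 libraries between 89.2 and 98.5% of the 389 compact divergent pairs had both starts inside 1 called region. In young replicate 1 the share was 78.1% and in young replicate 3 it was 78.4%, and old replicate 5 gave the lowest of the other values. Starts of single-gene regions were missed in the same libraries: 78.8 and 80.3% were inside a called region in young replicates 1 and 3, and 86.6 to 94.7% in the others. In all 10 libraries 254 of the 389 pairs (65.3%) had both starts in 1 region, and 339 (87.1%) did when young replicates 1 and 3 were left out. Means were 90.1 ± 10.8% in young and 95.0 ± 3.39% in old ones (exact permutation p = 0.444, n = 5 each). A start and a 3′ end within 1 kb were held by 1 block in all libraries in 32.9% of cases (55 of 167), and meeting 3′ ends in 17.0% (8 of 47).

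**Figure D3:**
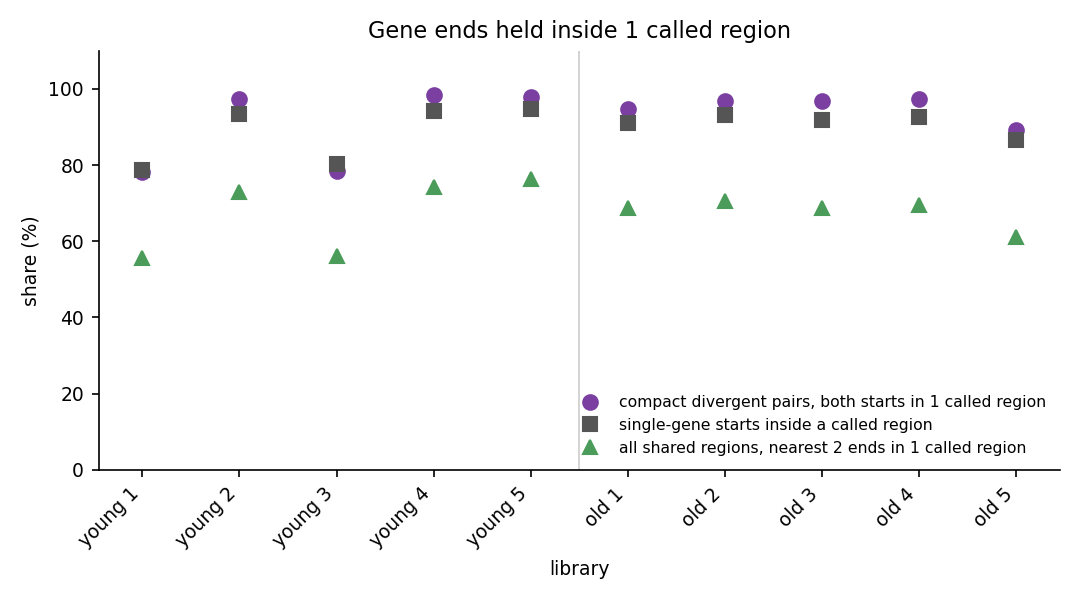
Share (y axis, %) of compact divergent pairs with both starts in 1 called region, of single-gene starts inside a called region, and of all shared regions with their nearest 2 ends in 1 called region, in each library (x axis). Young replicates 1 and 3 lie below the other libraries in all 3 measures.

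Few shared regions differed between ages. By limma on log2 of scaled tags plus 1, centred on the median region of each library, 8 of 1481 shared regions passed a Benjamini-Hochberg adjusted p of 0.05, and all 8 were lower in old libraries. That is 0.54% of shared regions. Over all 12550 regions called in all 10 libraries 1.07% passed in either direction and 0.534% were lower in old. Single-gene regions gave 41 calls (15 higher and 26 lower) and regions at no gene end 84 (52 higher and 32 lower). The median log2 difference, old minus young, was −0.05 in shared and −0.06 in single-gene regions and 0.08 in regions at no gene end. Without centring it was −0.35 in shared regions. The centred values of the ages did not overlap in 66 shared regions (4.46%; 55 lower and 11 higher in old), against 5.28% of all regions tested.

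The largest fall was at Ankhd1, Eif4ebp3 and Sra1 on chromosome 18 (36658265 to 36667163, mm10). Eif4ebp3 encodes a translation repressor that binds eIF4E, and Sra1 a coactivator of steroid receptors. The region held 175.0, 409.4, 421.6, 351.2 and 246.1 scaled tags in young replicates 1 to 5 and 105.0, 126.4, 184.9, 48.2 and 40.5 in old replicates 1 to 5. Old replicate 3 lay above young replicate 1, so the ages overlapped. The log2 difference was −1.51 with a standard error of 0.33 (limma adjusted p = 0.048).

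The region at Coa6, an assembly factor of cytochrome c oxidase, and Tarbp1, a tRNA methyltransferase gene (chromosome 8, 126421575 to 126425582, ends 121 bp apart), held 214.6, 361.1, 257.4, 420.7 and 377.6 scaled tags in young and 153.5, 195.5, 175.4, 99.7 and 89.0 in old replicates 1 to 5. All old values lay below all young ones, as in the 6 regions that follow. The log2 difference was −0.91 ± 0.19 (standard error, limma adjusted p = 0.0438). At Ciart (chromosome 3, 95878241 to 95885218), whose promoter with its 3 E-boxes is printed above, the values were 310.8, 525.2, 420.2, 617.6 and 424.0 scaled tags in young and 225.2, 259.5, 216.3, 138.4 and 180.3 in old replicates 1 to 5. The log2 difference was −0.87 ± 0.15 (limma adjusted p = 0.0269). The start of Ciart lies 1688 bp from the 3′ end of BC028528. The labels used here give no time of day for the isolation of the cells.

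At Gin1 and Ppip5k2 (chromosome 1, 97766901 to 97772627) the values were 567.3, 433.1, 403.2, 585.5 and 421.1 scaled tags in young and 243.9, 280.3, 222.0, 187.7 and 193.8 in old replicates 1 to 5, a log2 difference of −0.79 ± 0.14 (limma adjusted p = 0.0274). At Srm, the spermidine synthase gene, and Masp2, a protease gene of the lectin pathway of complement (chromosome 4, 148590161 to 148593758, ends 3 bp apart), they were 360.1, 600.1, 476.1, 491.6 and 390.8 in young and 248.5, 283.8, 298.0, 183.4 and 163.6 in old replicates. The log2 difference was −0.69 ± 0.12 (limma adjusted p = 0.0272). Old libraries thus held fewer tags in the region at the genes of a polyamine enzyme and a complement protease. Although the nearest ends are 3 bp apart, none of the libraries held both inside 1 called region. Which of the genes the region belongs to cannot be told from the tags.

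Myo19, a myosin of mitochondria, and Pigw, a gene of glycosylphosphatidylinositol anchor synthesis, overlap by 115 bp at their starts (chromosome 11, 84878748 to 84881465). Their region held 307.4, 383.6, 281.3, 303.2 and 253.8 scaled tags in young and 186.7, 192.9, 186.1, 143.1 and 130.2 in old replicates 1 to 5 (log2 difference −0.57 ± 0.11, limma adjusted p = 0.0388). Cebpd, an acute phase transcription factor gene, lies 321 bp from Spidr, a gene of homologous recombination repair (chromosome 16, 15886141 to 15891158). Their region held 519.2, 704.9, 638.2, 674.1 and 520.8 scaled tags in young and 320.3, 388.9, 333.9, 347.8 and 300.2 in old replicates (−0.55 ± 0.11, limma adjusted p = 0.0433). Cntrl, which encodes a centrosome protein, and AI182371 have divergent starts 7932 bp apart in a long merged region (chromosome 2, 35097738 to 35111469). Both starts lay inside 1 called region in none of the libraries. The region held 747.4, 806.2, 661.3, 804.7 and 613.4 scaled tags in young and 544.2, 410.8, 483.4, 355.7 and 351.8 in old replicates. The log2 difference was −0.48 ± 0.10 (limma adjusted p = 0.0438).

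**Figure D4:**
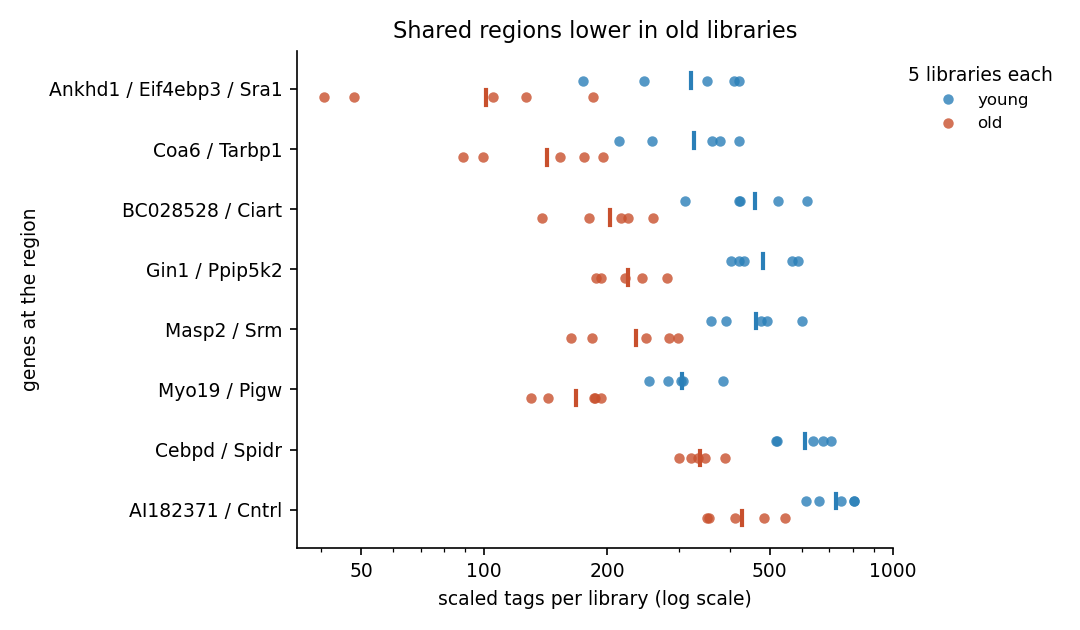
Scaled tags (x axis, log scale) in the 5 young and 5 old libraries at the 8 shared regions that passed the limma threshold (y axis, named by their genes), with points for libraries and bars for means. The ages overlap only at Ankhd1, Eif4ebp3 and Sra1.

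These falls went with a shorter called length. At Ciart the called length was 4437 bp in young and 2064 bp in old libraries on average, at Cebpd and Spidr 4636 and 2834 bp, and at Ankhd1, Eif4ebp3 and Sra1 6694 and 2931 bp. With tags divided by the called length, 0 of the 8 passed, and 2 other shared regions did (1 higher and 1 lower). The lower one was at Ilk, Taf10 and Tpp1 (log2 difference per kb −0.60, limma adjusted p = 0.0395). The log2 difference per kb was −0.03 at Ciart, 0.03 at Cebpd and Spidr, and −0.31 at Ankhd1, Eif4ebp3 and Sra1, while at Srm and Masp2 it was −0.49 (limma adjusted p = 0.132). When IP efficiency entered limma as a covariate, 0 shared regions passed (167 at an unadjusted p under 0.05), and neither did any of the 12550 regions. The log2 differences of the 8 then lay between −1.08 and −0.52, with −0.80 at Ciart, −0.93 at Gin1 and Ppip5k2 and −0.68 at Cebpd and Spidr. EdgeR's quasi-likelihood test called 6 (0.405% of shared and 0.948% of all regions). DESeq2 called 36 (31 lower and 5 higher), all 8 among them. DESeq2 thus called 2.43% of shared and 4.93% of all regions. Without young replicate 1 limma called 14 (12 lower and 2 higher), all 8 among them, which is 0.945% of shared regions against 2.03% of all. Of the 2 that were higher in old, named after their values were seen, Mlycd, a malonyl-CoA decarboxylase gene, with Osgin1 held 510.1, 733.2, 292.1, 249.4 and 203.3 scaled tags in young and 703.1, 666.6, 768.3, 755.0 and 390.7 in old replicates 1 to 5. Its log2 difference was 1.15 with all libraries (limma adjusted p = 0.0677) and 1.31 without young replicate 1 (limma adjusted p = 0.0299), and young replicates 1 and 2 lay among the old values. The other was at Fbxo44, Fbxo6 and Mad2l2 (0.36 and 0.40, limma adjusted p = 0.0774 and 0.0382). The count was 1 without young replicate 2, 0 without young replicate 3, 2 without young replicate 4 and 0 without young replicate 5. Over all 12550 regions, where 134 passed with every library, it fell as well, to 41, 51, 47 and 60. Leaving out old replicates 1 to 5 in turn gave 1, 3, 2, 0 and 1 shared regions, and 56, 37, 54, 30 and 48 of all regions. Without young replicates 1 and 3 together 9 shared regions passed, of which 6 were among the 8, and 259 of all regions.

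The pairs best known from textbooks were mostly shared regions here. Of 23 neighbouring pairs listed for being known neighbours, 15 lay at 1 shared region, and 1 of the 15, Cebpd and Spidr, passed the test. The median log2 difference of the 15 was −0.14, with 11 below 0, while over all 1481 shared regions 0.54% passed, the median was −0.05 and 60.1% were below 0. The list was chosen for pairs and with earlier results of these data known. Neither its share at shared regions nor its 1 call is therefore evidence of anything else. Hspd1 and Hspe1 encode the mitochondrial chaperonin HSP60 and its partner HSP10, and their starts overlap by 95 bp (chromosome 1, 55084470 to 55091261). Their region held 771.2, 1221, 903.1, 1195 and 932.2 scaled tags in young and 801.5, 895.2, 747.6, 645.7 and 593.2 in old replicates (log2 difference −0.14, limma adjusted p = 0.47). At Brca1 and Nbr1 (chromosome 11, 101551043 to 101559428) the values were 656.2, 649.6, 551.0, 618.3 and 457.4 in young and 475.2, 421.9, 435.7, 396.0 and 432.0 in old replicates (−0.13, limma adjusted p = 0.616). The ages overlapped in both, and both starts lay inside 1 called block in all 10 libraries.

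Of the other pairs in the list, Gart and Son, of purine synthesis and splicing, held 638.0 ± 161.6 scaled tags in the young libraries and 486.7 ± 51.5 in the old ones (SD, n = 5 each; log2 difference −0.07, limma adjusted p = 0.827). Paics and Ppat, both enzymes of purine synthesis, held 412.9 ± 111.5 and 335.6 ± 57.6 (0.02, limma adjusted p = 0.949).

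The strongest shared regions lay at genes of lipoproteins, amino acid transport and secretion. The region of Apoe, Apoc1, Apoc4, Apoc2, Tomm40 and Gm44805 held the most genes and the most tags, 3259 ± 484.9 scaled tags in the young libraries and 2650 ± 460.6 in the old ones (SD, n = 5 each), across a merged length of 31054 bp. The log2 difference after centring was −0.01 (limma adjusted p = 0.975). Apoa1 and Apoc3, the genes of the main protein of high-density lipoprotein and of an inhibitor of lipoprotein lipase, lay at a shared region with Sik3 (2956 ± 527.2 and 2102 ± 492.2). Slc38a3, a glutamine transporter gene, lay at one with Gnat1 (2689 ± 737.5 and 2023 ± 366.6). The region of Tbc1d24, Ntn3, Ccnf and Tedc2 held 2410 ± 650.4 and 1782 ± 326.4, and that of Sar1b and Sec24a, both of the coat that carries cargo out of the endoplasmic reticulum, 2182 ± 196.1 and 1714 ± 285.2. None of these 5 passed the limma threshold, and their log2 differences lay between −0.21 and −0.01. Regions with 3 or more genes (125) had a median of 380.8 scaled tags, and those with 2 genes 263.8.

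Shared regions varied between libraries about as much as single-gene regions. The within-age SD at matched level was 1.02 times that of single-gene regions, and 0.978 times without young replicates 1 and 3. In young libraries the median SD over shared regions was 0.241 on the log2 scale with all 5 libraries and 0.131 without young replicates 1 and 3, against 0.19 in old libraries. Single-gene regions gave 0.238, 0.141 and 0.202. The values without young replicates 1 and 3 leave out libraries that stood apart, so they do not show that young libraries were steadier than old ones. The steadiest compact regions above the median level were Ahsa1 with Vipas39 (SD 0.0742), Emg1 with Phb2 (0.0747), Rundc3a with Slc25a39 (0.0756) and Aspdh with Josd2 (0.0819). Ahsa1 encodes an activator of HSP90, Phb2 a prohibitin of the inner mitochondrial membrane, and Slc25a39 a mitochondrial glutathione carrier. At Ahsa1 and Vipas39, whose divergent starts are 37 bp apart, the values were 361.8, 444.0, 328.3, 424.0 and 288.5 scaled tags in young and 269.8, 257.9, 289.2, 219.5 and 197.0 in old replicates (log2 difference −0.28, limma adjusted p = 0.148).

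At the 2 least steady compact regions above the median level (SD 0.874 and 0.837) the lowest value was that of young replicate 1. At Kmt2a, a histone H3 lysine 4 methyltransferase gene, with Tmem25 and Ttc36, young replicate 1 held 88.9 scaled tags, and the other young replicates 650.8, 420.9, 850.0 and 679.0. At Aup1, Dqx1, Htra2 and Loxl3 it held 63.4, against 461.9, 236.3, 505.4 and 413.7. The regions that follow were named from the gene lists, not for their spread, and are examples of low values in young replicates 1 or 3. Their SDs within an age were larger, from 0.934 to 1.383. At Wrn, the helicase gene of Werner syndrome, and Purg (ends 76 bp apart) young replicate 3 held 23.8 scaled tags and young replicate 1 held 113.2, while the other 3 young libraries held 330.0, 406.3 and 276.3 and the old libraries 198.5 to 286.4. The same 2 libraries were the lowest at Rpa1, a single-stranded DNA binding protein gene, with Smyd4 (27.7 and 19.8, against 85.8 to 181.8 in the other 8). They were also the lowest at Mrps6, of the small mitochondrial ribosomal subunit, with Slc5a3 (61.7 and 25.2, against 141.5 to 271.7). At Atp5b, the beta subunit of ATP synthase, with Baz2a young replicate 3 held 15.0 and the other libraries 154.0 to 471.3.

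**Figure D5:**
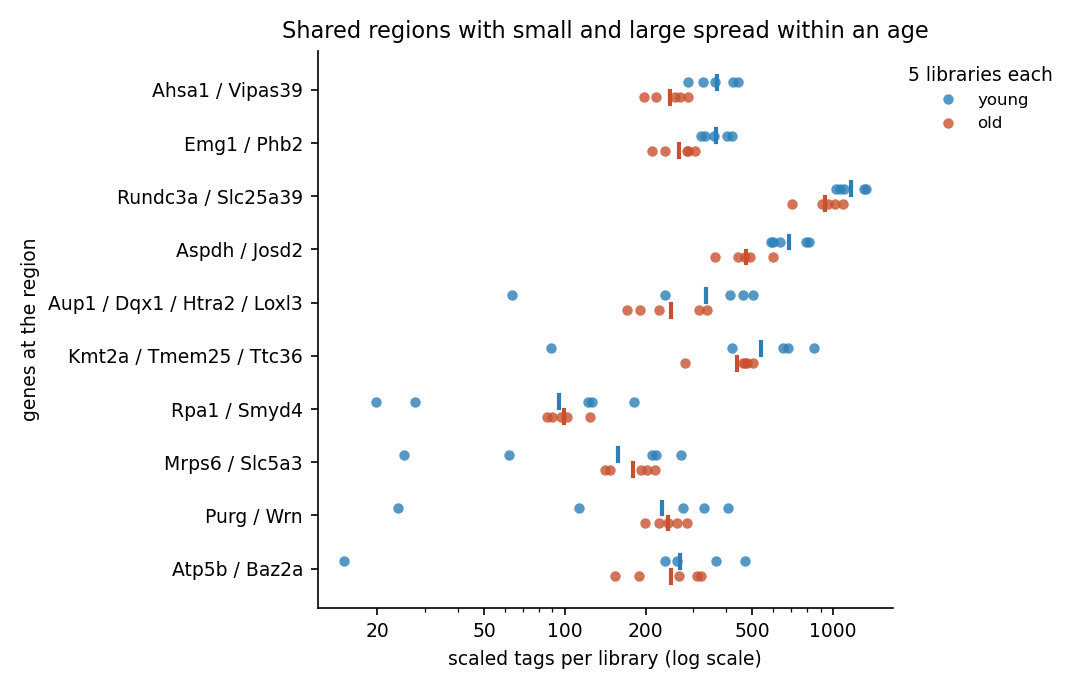
Scaled tags (x axis, log scale) in the 5 young and 5 old libraries at shared regions (y axis) ordered by the SD within an age, smallest at the top, with bars for means. The lowest point at each of the lower 6 regions is young replicate 1 or 3. Of these 6, only the regions of Kmt2a and Aup1 were chosen for their spread.

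Many genes of mitochondrial and repair functions sat at shared regions. Of the 7643 genes with a gene-end region called in all 10 libraries 38.5% sat at a shared region. The share was 54.9% of 71 genes of oxidative phosphorylation, 52.7% of 55 mitochondrial ribosomal genes, 52.6% of 19 chaperone genes, 52.5% of 40 DNA repair genes and 44.8% of 29 aminoacyl-tRNA synthetase genes. Cytosolic ribosomal genes (40.5% of 74), secreted hepatocyte proteins (10 of 25) and proteasome genes (39.4% of 33) lay close to the share over all genes. Hepatocyte transcription factors (28.0% of 25), circadian clock genes (4 of 16) and interferon-stimulated genes (22.7% of 22) lay below it. Replication-dependent histone genes, which stand in clusters, were at 90.3% of 31. These shares were not tested against each other.

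Calls within the lists were rare. Only the clock list (Ciart) and the hepatocyte transcription factor list (Cebpd) held a region that passed, 1 of 4 and 1 of 9, beside the textbook pairs. The 1 call among the textbook pairs was the same region, that of Cebpd. Over all shared regions 8 of 1481 (0.54%) passed, and over all regions tested 1.07%. All 9 regions of the transcription factor list had a log2 difference below 0, with a median of −0.23, against 890 of 1481 (60.1%) over all shared regions. Chaperone regions were below 0 in 9 of 10 (median −0.25) and proteasome regions in 11 of 14 (median −0.24). Regions of oxidative phosphorylation were below 0 in 29 of 40 (median −0.07), and the mitochondrial ribosome in 18 of 30 (median −0.08). The cytosolic ribosome gave 22 of 31 (median −0.10), the synthetases 11 of 14 (−0.17), the histones 10 of 13 (−0.14), DNA repair 12 of 22 (−0.04) and secreted proteins 8 of 9 (−0.21). At Hspa5, the main chaperone of the endoplasmic reticulum, with Rabepk the values were 1101, 865.0, 799.6, 701.0 and 483.1 scaled tags in young and 584.8, 484.4, 606.8, 336.1 and 391.5 in old replicates (log2 difference −0.41, limma adjusted p = 0.306). At Lrsam1 and Rpl12, with divergent starts 58 bp apart, the difference was −0.74 and at Rpl4 and Zwilch −0.72 (limma adjusted p = 0.189 and 0.137), both short of the threshold.

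Of the interferon-stimulated genes, 5 sat at shared regions, with log2 differences between −0.30 at Dtx3l and Parp9 (limma adjusted p = 0.329) and 0.73 at Isg15 and Perm1 (limma adjusted p = 0.139). Isg15 encodes a ubiquitin-like protein, and its region held 86.0, 232.1, 111.7, 233.0 and 147.0 scaled tags in young and 200.7, 264.6, 161.6, 214.2 and 186.7 in old replicates 1 to 5. The ages overlapped, and the lowest values were those of young replicates 1 and 3.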

How the data were processed

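Regions were called by the authors in every H3K27ac library against the matching input, with HOMER's histone settings and a 4-fold ratio of tags over input, per the file headers. The submitters' processing notes name mm10, and no aligner is given in the sources used here. As signal the authors deposited the tags of a region per 10000000 tags of the library. Unscaled tags, deposited in steps of 0.5, were taken for expected counts and rounded for edgeR 4.0.16 and DESeq2 1.42.0. The fold over input was computed from the deposited tags and input tags, each summed over the called pieces of a merged region. Only the alternative with a fold of at least 8 used the ratio that the authors deposited. The region length in bp is an other unit, deposited with it.

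The 10 lists were merged and set against 21887 RefSeq protein-coding genes of GRCm38.p6, to which mm10 corresponds. The strand of 17492 genes was taken from the RefSeq promoter table. Ages were compared over all 12550 regions called in all 10 libraries with limma 3.58.1 (R 4.3.3), old minus young, with a mean-dependent prior and a pseudocount of 1. The pseudocount makes log2 differences of weak regions too small. Properties of regions were compared with those of single-gene regions as medians, without a test over regions, since regions are not replicates. Exact permutation tests of reach were chosen after the values had been seen. The limma and edgeR steps were tested on simulated data.

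Same-numbered young and old libraries did not deviate together in every pair (correlations from −0.052 to 0.185), so the numbers were not used as pairs. The members and gene lists were chosen with earlier results of these data known. Some regions that the rule would name are not reported here. Named were all shared regions past the threshold, the 6 with the most tags and the 4 with the most genes. Among compact regions above the median level, the 4 steadiest and 2 least steady were named. Also named were up to 8 textbook pairs, and up to 4 regions per list that passed or otherwise the 2 with the largest difference. The promoters of Son, Gart, Nbr1, Ppip5k2 and Ciart were printed as those of named pairs. Alternatives covered the model, centring, pseudocount, thresholds, gene-end window, level matching and each library left out.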

Additional observations from a re-analysis of the deposited data

Results flagged for a closer look

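Of 52 groups of 5 libraries examined for a value far from the rest, 3 stood out, and chance gives about 1 in 20. All 3 concern old replicate 5, the library with the lowest IP efficiency, whose value lay far below those of the other 4 old libraries. The nearest 2 ends of a shared region lay inside 1 called region in 61.0% of cases there. The reach from divergent starts was 936.6 bp, and the downstream reach from single-gene starts was 1264 bp.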

How the results depend on the processing

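The count of 8 shared regions that differed between ages was 2 on tags per kb (0.135% of shared and 0.319% of all regions) and 36 by DESeq2 (2.43 and 4.93%). It was 91 without centring (0 of them higher in old, 6.14% of shared and 5.78% of all regions). Among regions with a mean of at least 50 scaled tags it was 5, against 79 over all such regions. At a fold of at least 8 over input 0 of 269 shared regions passed (40 at an unadjusted p under 0.05), against 42 of all 2159 regions. Where each library had to cover at least 0.5 of the region, 3 of 804 shared and 95 of all 5593 regions passed. With IP efficiency as a covariate it was 0, as over all regions. The count ranged from 0 to 14 when 1 library was left out, and from 30 to 255 over all regions. With the replicate number as a block it was 2 (0.135% against 0.59% of all), the regions of Srm and Masp2 and of Ankhd1, Eif4ebp3 and Sra1, and the numbers do not pair the libraries. By edgeR, cyclic loess, a pseudocount of 10, a 500 bp window or compact regions only it was 6 to 8. Of the 8 regions, only that at Cebpd and Spidr changed direction, to 0.0342 on tags per kb.

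The number of shared regions was 269 at a fold of at least 8 and 804 at a cover of at least 0.5. Relative to single-gene regions, length was 1.01 for compact regions, 1.08 without level matching and 1.0 at a fold of at least 8. Fold over input was 0.972 without matching. Spread was 0.976 without matching, 0.976 on tags per kb and 0.978 without young replicates 1 and 3. The difference of the median old minus young values, 0.0151, was −0.0174 at a fold of at least 8 and −0.0153 without young replicates 1 and 3. The share of divergent starts was 46.9% among compact regions, and the ratio of downstream reaches 0.748 without matching. The fall in reach from divergent starts ranged from −182 to −127 bp with 1 library left out. Causes were not tested. Regions near the calling threshold are known only where they were called, and called length follows from the authors' threshold in each library, so neither a missing call nor a shorter block shows less acetylation.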
